A study of Mus musculus with 2 samples.

Results

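Troponin is the calcium switch of striated muscle, and its 6 skeletal muscle genes form a slow and a fast set of 3 subunits. The genes Tnnt1, Tnni1 and Tnnc1 encode the slow forms of troponin T, I and C, and Tnnt3, Tnni2 and Tnnc2 encode the fast forms. They were chosen by symbol from the gene list of the deposited matrices, which held each symbol under 1 gene identifier, and make up 6 of 53700 features. Transcripts were measured by single-nucleus RNA sequencing of the quadriceps, a thigh muscle made mostly of fast fibres, in C57BL/6N mice aged 3 months. One group was WT and the other was a PTRF knockout. PTRF is the older name of Cavin1, which encodes a protein that coats caveolae, small pits of the plasma membrane. There was 1 library of each genotype, and the sources used here do not give how many mice went into it, their sex or which stretch of the gene was removed. No difference between genotypes therefore has a replicate check. The intervals below are exact 95% intervals that cover counting error only, and nuclei are not replicates.

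Troponin sits along the actin filament with tropomyosin. Troponin C binds calcium, troponin I holds actin and myosin apart when calcium is low, and troponin T ties the complex to tropomyosin. Slow fibres, which carry the slow myosin heavy chain Myh7, use the slow troponin set, and fast fibres, which carry Myh2, Myh1 or Myh4, use the fast set. Troponin C of slow fibres is also the form made in the heart.

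Positions are given on the mouse genome build GRCm38 with the GENCODE M21 annotation. Tnnt3 (ENSMUSG00000061723) spans chr7:142498836-142516009 on the plus strand, and Tnni2 (ENSMUSG00000031097) ends 54.4 kb before it, at chr7:142441808-142444410 on the same strand. Tnnt1 (ENSMUSG00000064179) lies far off on the same chromosome, at chr7:4504570-4516382 on the minus strand. Tnni1 (ENSMUSG00000026418) is at chr1:135779434-135810989 on the plus strand. Tnnc2 (ENSMUSG00000017300) is at chr2:164777161-164779967 on the minus strand, and Tnnc1 (ENSMUSG00000091898) is at chr14:31208312-31211729 on the plus strand. UMIs were counted per gene over all its transcripts, so splice forms, of which the annotation lists 27 for Tnnt3, are not told apart.

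The RefSeq promoter table for GRCm38.p6 held 4 of the 6 genes; Tnnt3 and Tnni2 were not among them. The 250 bases before the first listed start of the 3 slow genes are shown here, because at least 2 of these genes were detected together in some of the few Myh7 nuclei described below. The windows are chr7:4515976-4516225 (minus strand) for Tnnt1, chr1:135799171-135799420 (plus strand) for Tnni1 and chr14:31208062-31208311 (plus strand) for Tnnc1. The Tnnt1 and Tnni1 windows lie inside the GENCODE gene spans given above, and only the Tnnc1 window lies before its span. Their longest runs of annotated exon of the same gene are 29 bases for Tnnt1, 19 for Tnni1 and 0 for Tnnc1. Capitals mark matches to CANNTG, the E-box bound by MyoD and its relatives, and to CATTCC or its reverse complement GGAATG, the MCAT element bound by TEAD factors.
Tnnt1: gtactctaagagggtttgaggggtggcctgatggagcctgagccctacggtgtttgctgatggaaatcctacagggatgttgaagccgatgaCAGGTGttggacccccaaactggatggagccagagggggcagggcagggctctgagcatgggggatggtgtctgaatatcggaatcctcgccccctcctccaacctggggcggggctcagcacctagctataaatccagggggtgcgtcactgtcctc
Tnni1: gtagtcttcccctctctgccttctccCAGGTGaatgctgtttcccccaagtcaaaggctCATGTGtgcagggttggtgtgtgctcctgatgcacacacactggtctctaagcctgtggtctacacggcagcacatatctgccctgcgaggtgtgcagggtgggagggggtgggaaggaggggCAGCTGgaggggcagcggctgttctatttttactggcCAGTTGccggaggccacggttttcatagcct
Tnnc1: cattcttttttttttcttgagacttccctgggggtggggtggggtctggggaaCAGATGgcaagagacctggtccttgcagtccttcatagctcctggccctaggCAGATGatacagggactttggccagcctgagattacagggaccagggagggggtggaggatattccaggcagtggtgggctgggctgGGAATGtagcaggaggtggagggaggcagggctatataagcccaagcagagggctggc
The Tnnt1 window held 1 E-box, the Tnni1 window held 4 and the Tnnc1 window held 2. E-boxes are common: 66.2% of the 32851 promoter windows of the same length had at least 1. The Tnnc1 window also held 1 MCAT element, GGAATG, which starts 58 bases before the start site, and 12.6% of all windows held one. No match to the MEF2 motif was found in these 3 windows on either strand, and 2.92% of all windows held one. The motifs do not overlap in these windows. A match describes the letters only and says nothing of binding.

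The deposited matrices held 10280 WT and 7766 knockout barcodes, of which 10272 and 7762 passed the filters, with medians of 703 and 1562 UMIs per nucleus. A UMI (unique molecular identifier) counts 1 captured molecule. The targeted gene was at 75 UMIs in the WT and 2 in the knockout library. Nuclei with a Y-linked UMI and no Xist UMI, called Y-marked here, numbered 2721 in WT and 3103 in the knockout. Nuclei with Xist and no Y-linked UMI, called Xist-marked, numbered 2 and 1527, and a further 2 and 221 held both. The knockout library thus held nuclei of both sexes and the WT library nearly none with Xist. The libraries shared 24 barcode sequences. The ribosomal RNA gene Rn18s took 8.07% of WT and 2.90% of knockout UMIs.

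Each nucleus was assigned to the myosin heavy chain gene with most UMIs in it, and is called Myh4-led, Myh1-led, Myh2-led or Myh7-led here. This grouping uses no troponin gene. Myh4, of the fastest fibres, led in 6729 WT and 4895 knockout nuclei. Myh1 led in 1058 and 646, and Myh2, of the slower of the fast fibres, in 682 and 313. Myh7, of slow fibres, led in only 16 WT nuclei, 0.156% (0.0891 to 0.253) of those kept, and in 40 knockout nuclei, 0.515% (0.368 to 0.701). Within the knockout library, Myh7 led in 1.11% of Xist-marked nuclei (17 of 1527) and 0.226% of Y-marked nuclei (7 of 3103). In Y-marked nuclei alone the share was 0.110% in WT and 0.226% in the knockout, with intervals that overlap. The remaining nuclei were tied between myosin genes (390 and 78) or had no UMI of the 4 genes (1397 and 1790).

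Myonuclear transcripts were abundant in each group. The general myonuclear markers (Ttn, Neb, Ckm, Acta1, Dmd and Ryr1) summed to 99428 CPM (counts per 1000000 UMIs of the group) in WT Myh4-led nuclei and 82403 in knockout ones. The same markers summed to 93399 CPM in WT and 84108 in knockout Myh1-led nuclei, and to 89474 and 81142 in Myh2-led nuclei. In Myh7-led nuclei they summed to 121631 and 71684.5. Within Myh4-led nuclei Ttn was at 72743 CPM in WT and 47293 in the knockout (log2 ratio of knockout over WT -0.62). Myh4 was at 3949 and 2746 there (-0.52). The groups were not pure for their myosin gene. Myh4-led nuclei held Myh1 at 80.0 CPM in WT and 28.6 in the knockout, and Myh2 at 49.4 and 11.7. Myh1-led nuclei held Myh4 at 329 CPM in WT and 145 in the knockout (log2 ratio of knockout over WT -1.18), and Myh2 at 111 and 129. Myh2-led nuclei held Myh4 at 381 and 119 (-1.67), and Myh1 at 373 and 585. Myh7-led nuclei held Myh4 at 382 and 94.6. The part of these Myh4 differences in the troponin differences given below was not tested.

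The fast set made up nearly all troponin transcripts in fast nuclei of both genotypes, and the slow set most of those in Myh7-led nuclei. The slow genes' share of all troponin UMIs in Myh4-led nuclei was 0.143% in WT (35 of 24409 UMIs) and 0.175% in the knockout (28 of 16040), a difference of 0.031 percentage points with an interval from -0.050 to 0.120. The level of the slow sum in these nuclei was 5.44 CPM in WT and 2.47 in the knockout (log2 ratio -1.13, -1.91 to -0.38), and 9 of 14 other settings kept that call. In Myh7-led nuclei the slow share was 84.8% in WT (39 of 46; 71.1 to 93.7) and 95.7% in the knockout (200 of 209; 92.0 to 98.0). This difference of 10.9 points had an interval from 1.29 to 24.8, but the intervals of the 2 shares overlap. It kept its direction under 14 of 14 other settings and was called under only 1 of them. In nuclei of 1000 to under 2000 UMIs, of which there were 6 WT and 19 knockout, the difference was 1.16 points. Of the 7 fast UMIs in WT Myh7-led nuclei, 6 were of Tnnt3, which was lower in the knockout and is part of the denominator. The plot of troponin levels by leading myosin gene shows both patterns.

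**Figure D1:**
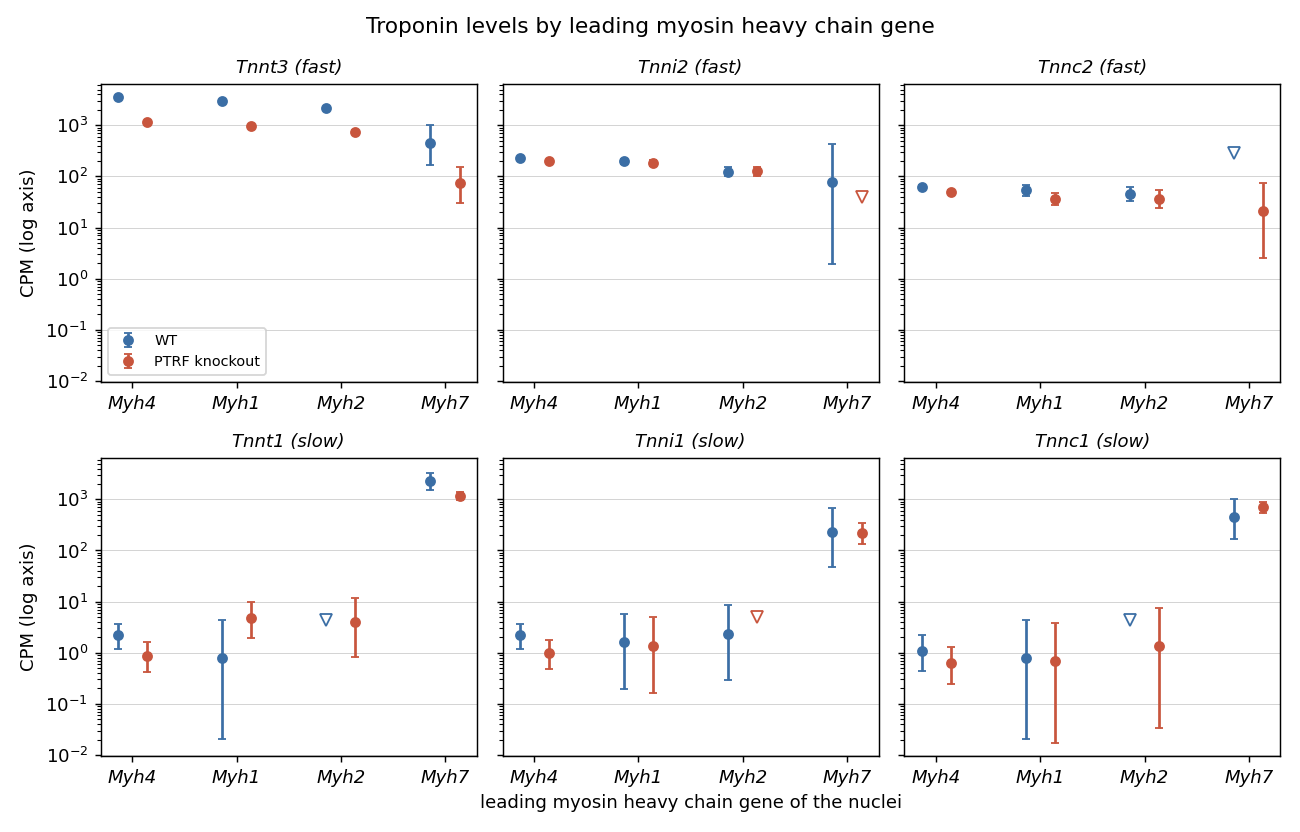
Level of each troponin gene in CPM (log axis) in nuclei grouped by their leading myosin heavy chain gene, WT in blue and PTRF knockout in red; bars are exact Poisson 95% intervals of the summed UMIs, and an open triangle marks the upper bound where the sum was 0. Fast genes (top) were highest in Myh4-led nuclei, with Tnnt3 at 3494 CPM in WT and 1165 in the knockout, and slow genes (bottom) stood at 4.82 CPM or below in the Myh4-led, Myh1-led and Myh2-led groups.

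Tnnt3, the fast troponin T, was the member that differed most between the libraries. Myh4-led nuclei held 22493 Tnnt3 UMIs in WT, or 3494 CPM (3448 to 3540), and 13206 in the knockout, or 1165 CPM (1146 to 1186). The log2 ratio of knockout over WT was -1.58 (-1.61 to -1.55), a level 3.00-fold lower. In Myh1-led nuclei Tnnt3 stood at 2992 CPM in WT and 947 in the knockout (log2 ratio -1.66, -1.75 to -1.57). In Myh2-led nuclei it stood at 2165 and 737 CPM (-1.55, -1.70 to -1.42). The counting intervals of WT and knockout did not overlap in any of these 3 groups. By UMIs, not scaled for gene length, it ranked 19th of all features in WT Myh4-led nuclei and 81st in knockout ones.

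A gene was called lower or higher if it had at least 20 UMIs over both libraries, a ratio beyond 1.5-fold and an interval that did not reach 1. By this rule 2 of the 5 members that could be tested in Myh4-led nuclei were lower in the knockout, Tnnt3 and Tnnt1, and 0 were higher. Of all 15340 genes tested there, 25.4% were lower and 11.6% higher. The call alone therefore does not set the troponins apart from other genes. In Myh1-led nuclei 1 of 3 testable members, Tnnt3, was lower, against 7.48% of 8132 genes. In Myh2-led nuclei it was again 1 of 3, Tnnt3, against 6.06% of 6518 genes. No member was called higher in either group, where 13.6% and 15.9% of genes were. Among the 1545 genes tested in Myh4-led nuclei that reached 100 CPM over both libraries, 4.92% were called lower, the median log2 ratio was 0.27 and Tnnt3 had the 9th lowest value.

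Tnni2, the fast troponin I, differed little. It stood at 229 CPM in WT and 197 in knockout Myh4-led nuclei, from 1477 and 2237 UMIs, and the log2 ratio was -0.22 (-0.31 to -0.12). In Myh1-led nuclei it was at 196 and 183 CPM (-0.10, -0.36 to 0.15), and in Myh2-led nuclei at 124 and 127 CPM (0.03, -0.38 to 0.45). None of these passed the 1.5-fold rule, and the intervals exclude a decrease of the size seen for Tnnt3. Tnni2 lies 54.4 kb from Tnnt3 on the same strand, and the ratio of their UMIs differed between the libraries. There were 15.2 Tnnt3 UMIs for each Tnni2 UMI in WT Myh4-led nuclei (14.4 to 16.1) and 5.90 in knockout ones (5.64 to 6.18). The ratio was 15.3 and 5.18 in Myh1-led nuclei and 17.4 and 5.79 in Myh2-led nuclei.

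Tnnc2, the fast troponin C and the fast gene with fewest UMIs, was at 62.7 CPM in WT and 50.2 in knockout Myh4-led nuclei, from 404 and 569 UMIs. Its log2 ratio was -0.32 (-0.51 to -0.13). It was at 53.4 and 36.5 CPM in Myh1-led nuclei (-0.55, -1.10 to -0.01) and at 46.2 and 36.6 CPM in Myh2-led nuclei (-0.33, -1.10 to 0.41). It was not called in any of the 3 groups. In Myh1-led nuclei it was called lower without the 5% deepest nuclei (-0.77), without Rn18s, Malat1 and mitochondrially encoded genes in the total (-0.64) and with scaling by the median ratio over genes (-0.69), and stood at 0.44 with Xist-marked knockout against Y-marked WT nuclei. The UMI ratio of Tnni2 to Tnnc2 was close between the libraries, at 3.66 (3.27 to 4.09) in WT and 3.93 (3.58 to 4.32) in knockout Myh4-led nuclei. The fast sum was at 3786 CPM in WT and 1413 in the knockout (log2 ratio -1.42, -1.45 to -1.39), and Tnnt3 supplied 92.2% of all troponin UMIs in WT and 82.3% in knockout Myh4-led nuclei.

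**Figure D2:**
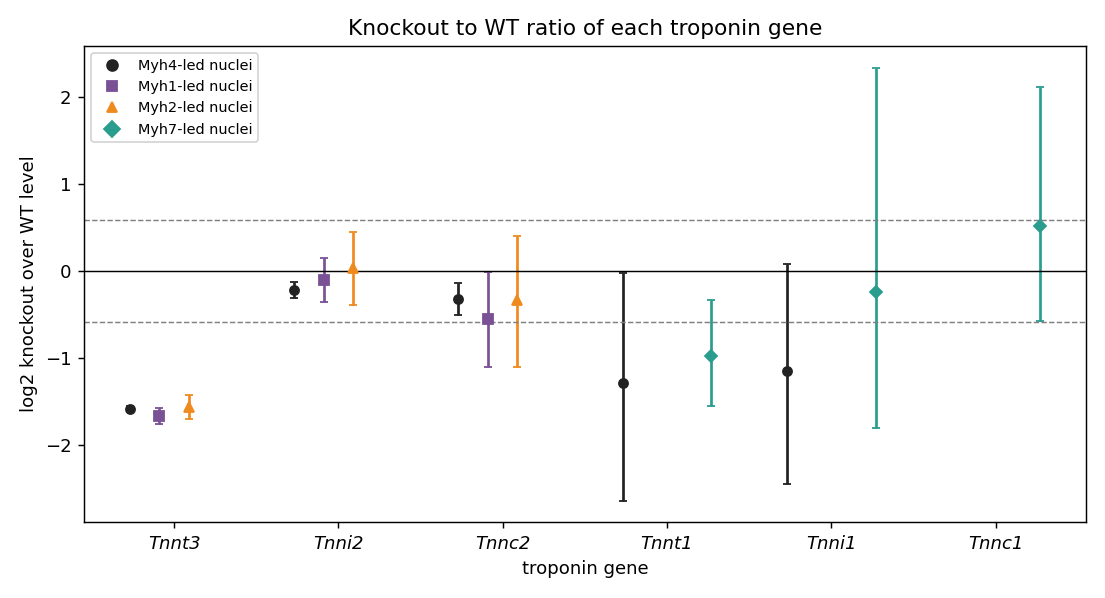
Log2 ratio of the knockout over the WT level of each troponin gene, by leading myosin gene of the nuclei; points are shown for sums of at least 20 UMIs over both libraries, bars are exact 95% counting intervals and dashed lines mark 1.5-fold. Tnnt3 lay between -1.66 and -1.55 in the 3 fast groups, whereas Tnni2 lay between -0.22 and 0.03.

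In the knockout, the order of Tnnt3 and Tnni2 depended on whether and by which length their levels were scaled. Over the genomic span, which nuclear RNA with introns covers, WT Myh4-led nuclei held 203 CPM per kb of Tnnt3, 88.1 of Tnni2 and 22.4 of Tnnc2. In knockout nuclei the same levels were 67.9, 75.8 and 17.9 CPM per kb, so Tnnt3 and Tnni2 changed places on this scale. Per kb of exon the WT levels were 2207 for Tnnt3, 153 for Tnni2 and 78.4 for Tnnc2, and Tnnt3 led in the knockout too, at 736 against 132 for Tnni2. The sources used here do not say whether introns were counted, so neither length scale is preferred. A UMI counts a captured molecule, so these levels may need no scaling by length. Unscaled, Tnnt3 led Tnni2 in both libraries, with 15.2 UMIs for each Tnni2 UMI in WT and 5.90 in knockout Myh4-led nuclei. The change of places was thus seen only per kb of genomic span.

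Across the fast groups the order of levels was the same for Tnnt3 in both genotypes: Myh4-led above Myh1-led above Myh2-led above Myh7-led. The Myh2-led level was 0.620 of the Myh4-led level in WT (0.591 to 0.650) and 0.633 in the knockout (0.579 to 0.689). For Tnni2 the same fraction was 0.545 (0.440 to 0.661) and 0.648 (0.519 to 0.793). Its Myh1-led and Myh4-led levels in the knockout did not differ beyond counting error. For Tnnc2 the fractions were 0.745 and 0.741, with intervals that reach 1 in both libraries.

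The 2 libraries differ in depth, so the fast genes were also read in nuclei of equal depth. Nuclei were thinned to 500 UMIs and their leading myosin gene was called again on the thinned counts, which left 4904 WT and 3660 knockout Myh4-led nuclei. Of these, 80.5% in WT (79.3 to 81.6) and 44.1% in the knockout (42.5 to 45.7) held a Tnnt3 UMI. With the leading gene taken from all UMIs instead, in 5548 WT nuclei deep enough to thin and 4895 knockout nuclei, the shares were 79.8% and 43.0%. The unthinned shares were 88.4% and 81.2%. Nuclei with 0 Tnnt3 UMIs made up 19.5% in WT and 55.9% in the knockout after thinning, nuclei with 1 were at 29.0% and 29.5%, and those with 3 were at 15.2% and 2.9%. In the nuclei called again, the thinned shares for Tnni2 were 11.3% and 10.3%, and for Tnnc2 3.28% (2.80 to 3.82) and 2.68% (2.18 to 3.25).

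**Figure D3:**
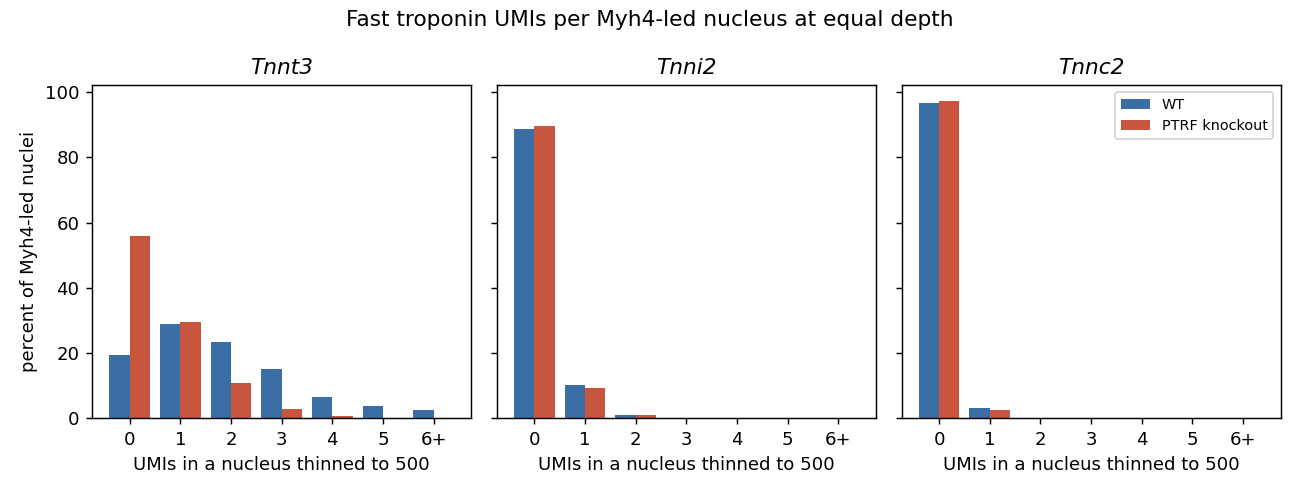
Percent of nuclei with each number of fast troponin UMIs after thinning to 500 UMIs, among the 4904 WT (blue) and 3660 PTRF knockout (red) nuclei that were Myh4-led on the thinned counts. Nuclei with 0 Tnnt3 UMIs made up 19.5% in WT and 55.9% in the knockout, while the Tnni2 and Tnnc2 bars nearly coincide.

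Within bins of depth the Tnnt3 difference was present throughout. WT Myh4-led nuclei of under 1000 UMIs held 3696 CPM and knockout ones 1171, those of 1000 to under 2000 UMIs held 3439 and 1260, those of 2000 to under 4000 held 3244 and 1156, and those of 4000 or more held 2779 and 1101. The log2 ratio in these bins ran from -1.66 to -1.34. Tnni2 had no such steady difference: it was at 244 and 284 CPM in the shallowest bin and at 236 and 156 CPM in the deepest, where the log2 ratio was -0.60 (-0.94 to -0.24). The deepest bin held 66 WT and 623 knockout nuclei.

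**Figure D4:**
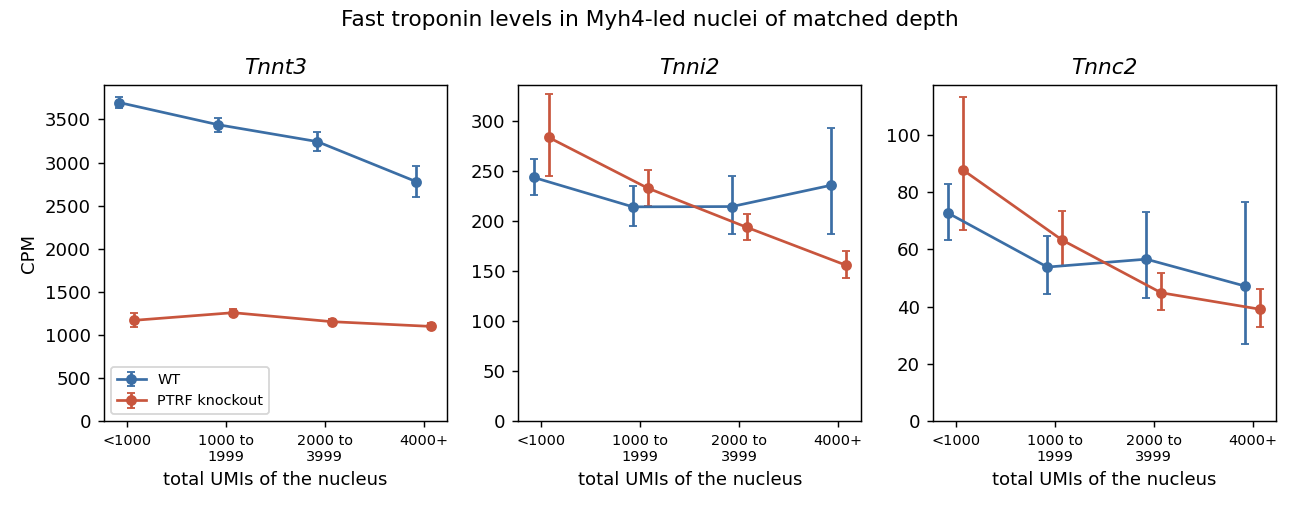
Level of the fast troponin genes in Myh4-led nuclei of 4 ranges of total UMIs, in CPM from 0, WT in blue and PTRF knockout in red; bars are exact Poisson 95% intervals. Knockout Tnnt3 lay between 1101 and 1260 CPM and WT Tnnt3 between 2779 and 3696, while the Tnni2 and Tnnc2 lines cross.

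Sex and other cells were read in the same way. In Y-marked nuclei alone, Myh4-led nuclei held Tnnt3 at 3285 CPM in WT and 1167 in the knockout, a log2 ratio of -1.49. Inside the knockout library, Tnnt3 in Xist-marked Myh4-led nuclei was at 1097 CPM against 1167 in Y-marked ones. Tnnc2 did differ between these knockout nuclei, at 68.6 CPM in Xist-marked and 46.4 in Y-marked ones (log2 ratio 0.57, 0.18 to 0.93). Tnni2 was at 165 and 190 CPM.

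Nuclei with at least 3 UMIs of fibro-adipogenic markers (Pdgfra, Dcn, Lum, Col1a1, Col1a2, Col3a1) and more of these than of the 4 myosin genes, which should make no skeletal troponin, carried some of it. Tnnt3 was at 1244 CPM (851 to 1756) in 24 such WT nuclei and 174 CPM (128 to 229) in 200 knockout ones, or 35.6% and 14.9% of the Myh4-led level. Their median depths were 975.5 and 1084.5 UMIs, against 729 and 1809 in Myh4-led nuclei. Ttn, the giant sarcomere protein's gene, was at 19746 and 3840 CPM in the same nuclei. Both genes were thus higher in WT than in knockout nuclei of this kind, and the part of this in the Tnnt3 difference of Myh4-led nuclei was not tested. Tnnc2 in knockout fibro-adipogenic-marker nuclei was at 35.4 CPM (17.0 to 65.1), 70.5% of its Myh4-led level, and 3.00% of them held a Tnnc2 UMI after thinning. The share of 2.68% in thinned knockout Myh4-led nuclei did not exceed that, which rests on 6 of 200 nuclei (1.11 to 6.42). Before thinning, 4.50% of these fibro-adipogenic-marker nuclei and 9.70% of the deeper Myh4-led ones held a Tnnc2 UMI. The 24 WT fibro-adipogenic-marker nuclei held 0 Tnnc2 UMIs.

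Of the 3 fast genes, 2 share ground with another gene, and strand use in counting is not given. An antisense gene, Prr33, overlaps 46.2% of the Tnnt3 span. Prr33 was at 36.7 CPM in WT and 28.2 in knockout Myh4-led nuclei (log2 ratio -0.38, -0.62 to -0.13). Ube2c overlaps 59.2% of Tnnc2 and held 6 and 3 UMIs. Among the slow genes, Tnnc1 lies wholly inside Nisch on the opposite strand, and Nisch was at 229 CPM in WT and 200 in knockout Myh7-led nuclei.

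The few Myh7-led nuclei held a far larger part of the slow set than of the nuclei. These were 0.156% of WT and 0.515% of knockout nuclei, yet held 37.9% of all slow troponin UMIs in WT (39 of 103; 28.5 to 48.0) and 75.5% in the knockout (200 of 265; 69.8 to 80.5). The far more numerous Myh4-led nuclei held 34.0% in WT and 10.6% in the knockout, and those with no myosin UMI 14.6% and 8.68%. Over all kept nuclei the slow sum was 10.6 CPM in WT and 16.5 in the knockout. In a bulk sum of this kind, more slow nuclei and more slow troponin RNA per nucleus cannot be told apart, which is why the levels per group follow.

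Tnnt1, the slow troponin T, gave the most UMIs of the slow genes. Myh7-led nuclei held 30 Tnnt1 UMIs in WT, or 2291 CPM (1545 to 3270), and 112 in the knockout, or 1177 CPM (969 to 1416). The log2 ratio was -0.98 (-1.55 to -0.33), and Tnnt1 was the 1 of 3 testable members called lower there. Of 1013 genes tested, 3.26% were lower and 7.21% higher. Tnnt1 was not alone among muscle genes. In the same nuclei Ttn was called lower too, with a ratio of -1.20 (-1.30 to -1.11), 47th lowest against 73rd for Tnnt1. The general myonuclear markers summed to 121631 CPM in WT and 71684.5 in the knockout, and Myh7 was at 4352 and 3247. The part of these differences in the Tnnt1 difference was not tested. The Tnnt1 call was lost after thinning and calling the leading gene again (-0.64) and in Y-marked nuclei (-0.90). It was also lost with Xist-marked knockout nuclei against Y-marked WT nuclei (-0.86). In nuclei of under 1000 UMIs, 10 in WT and 7 in the knockout, Tnnt1 was at 1523 and 1538 CPM (log2 ratio 0.01, -1.49 to 1.52). In those of 1000 to under 2000 UMIs, 6 and 19, it was at 2922 and 1337 CPM (-1.14, -1.93 to -0.28). Between nuclei of 1 library the contrast was far larger: Myh7-led over Myh4-led levels stood at 1034-fold in WT (542 to 2150) and 1276-fold in the knockout (699 to 2857).

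Tnni1, the slow troponin I, had 3 UMIs in WT Myh7-led nuclei and 21 in knockout ones, at 229 CPM (47.2 to 669) and 221 CPM (137 to 337). The log2 ratio of -0.24 had an interval from -1.80 to 2.33, so that no difference was detectable at this depth. Tnnc1, the slow troponin C, had 6 and 67 UMIs, at 458 CPM (168 to 997) and 704 CPM (546 to 894), with a log2 ratio of 0.52 (-0.58 to 2.12). Neither was called. The Myh7-led level exceeded the Myh4-led one 119-fold in WT and 223-fold in the knockout for Tnni1, and 426-fold and 1072-fold for Tnnc1.

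Troponin T and C of the slow set did not keep the same ratio in both libraries by point estimate. There were 5.00 Tnnt1 UMIs for each Tnnc1 UMI in WT Myh7-led nuclei (2.05 to 14.7) and 1.67 in knockout ones (1.22 to 2.30), with intervals that overlap. Per kb of genomic span, Tnnc1 (134 CPM per kb in WT, 206 in the knockout) and Tnnt1 (194 and 99.6) were of the same order, and Tnni1, the longest gene of the 6, was at 7.26 and 6.99. Within the knockout library, Tnnc1 in Myh7-led nuclei was at 1086 CPM in Xist-marked nuclei and 523 in Y-marked ones (log2 ratio 1.01, 0.07 to 2.17), while Tnnt1 was at 1330 and 1283.

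Single Myh7-led nuclei showed the slow genes side by side. At least 1 slow UMI was found in 11 of 16 WT and 36 of 40 knockout nuclei, at least 2 of the slow genes in 7 and 25, and all 3 in 0 and 11. Slow UMIs per nucleus ranged from 0 to 6 in WT with a median of 2, and from 0 to 16 in the knockout with a median of 5. The median depth of these nuclei was 681 and 1580 UMIs. After thinning the same nuclei to 500 UMIs, for which 12 WT ones were deep enough, a Tnnt1 UMI was held by 6 of 12 in WT and 16 of 40 in the knockout. With the leading gene called on the thinned counts, the Myh7-led nuclei were a partly different set, and 6 of 15 in WT and 16 of 31 in the knockout held one. A fast troponin UMI was found in 5 WT and 9 knockout Myh7-led nuclei.

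**Figure D5:**
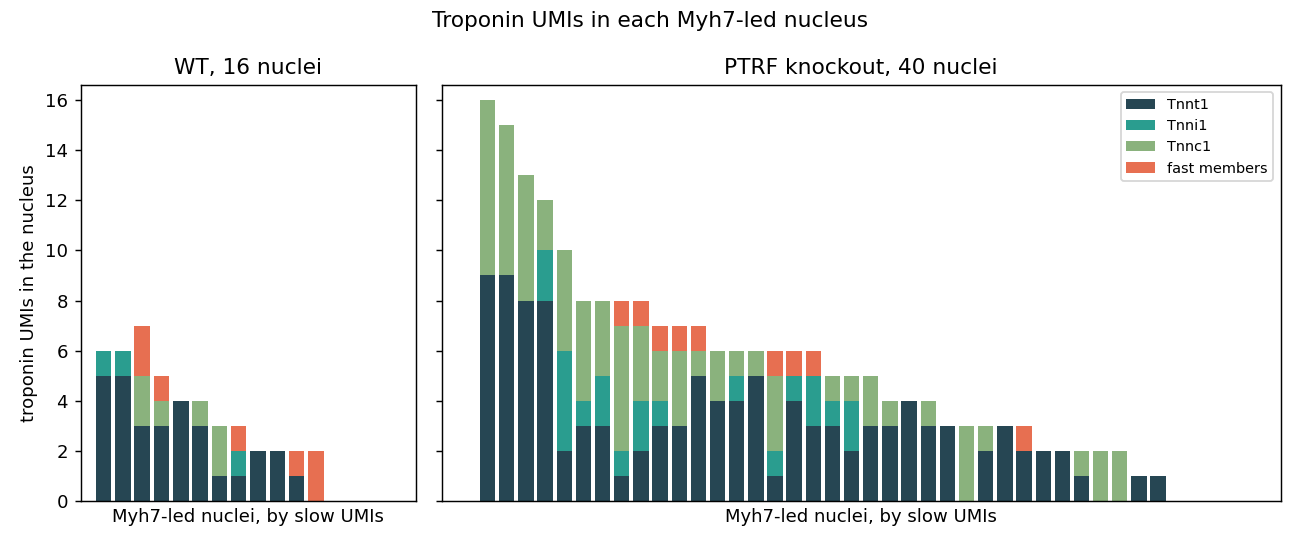
Troponin UMIs in each Myh7-led nucleus, 1 bar per nucleus sorted by slow UMIs, stacked as Tnnt1, Tnni1, Tnnc1 and the fast members together. WT has 16 nuclei with up to 6 slow UMIs and the knockout 40 with up to 16; the median depth was 681 and 1580 UMIs.

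By subunit, the slow share in Myh7-led nuclei was 83.3% in WT and 94.1% in the knockout for troponin T. For troponin I it was 3 of 4 UMIs in WT and 21 of 21 in the knockout. For troponin C it was 6 of 6 and 67 of 69. Fast troponins in these nuclei came to 7 UMIs in WT (6 of Tnnt3, 1 of Tnni2) and 9 in the knockout (7 of Tnnt3, 2 of Tnnc2). Tnnt3 was at 458 CPM in WT and 73.6 in the knockout there, 7.04-fold and 14.8-fold below its Myh4-led level, and the fibro-adipogenic-marker nuclei given above carried more of it in both libraries.

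Outside the Myh7-led nuclei the slow genes were near the limit of counting. Among nuclei led by Myh1, Myh2 or Myh4 with no Myh7 UMI, 35 of 8453 in WT (0.414%) and 28 of 5848 in the knockout (0.479%) held a slow troponin UMI, and 0 and 2 held UMIs of more than 1 slow gene. In Myh4-led nuclei Tnnt1 had 14 UMIs in WT and 10 in the knockout, at 2.17 and 0.883 CPM. The log2 ratio of -1.28 (-2.63 to -0.03) passed the rule for a call, but only 3 of 14 other settings kept it. Tnni1 had 14 and 11 UMIs (-1.15), 7 of the 11 in 1 nucleus, and Tnnc1 had 7 and 7. The knockout fibro-adipogenic-marker nuclei carried 2 Tnnt1 UMIs, or 7.08 CPM, and the WT ones 0, so the knockout Myh4-led level did not exceed the level in nuclei that should lack the gene.

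In Myh1-led nuclei the slow share was 0.0983% in WT (4 of 4071 UMIs) and 0.588% in the knockout (10 of 1702), a difference of 0.489 points (0.148 to 0.985). The interval reached 0 and the difference was smaller with a leading gene of at least 2 UMIs (0.265), in nuclei with at least 500 genes (0.216) and in Y-marked nuclei (0.234). It also reached 0 with Xist-marked knockout against Y-marked WT nuclei and in nuclei of 1000 to under 2000 UMIs, where the difference was 0.558 in both. Of the 10 knockout UMIs, 7 were of Tnnt1, against 1 in WT. Tnnt3, which was lower in the knockout, is part of the denominator of this share. The summed slow level was 3.19 CPM in WT and 6.89 in the knockout, and the log2 ratio of 1.01 had an interval from -0.68 to 3.24. In Myh2-led nuclei the share was 0.101% (2 of 1974) and 0.598% (4 of 669), and the interval of the difference reached 0.

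The partners of troponin on the thin filament were read from a list of 11 genes. In Myh4-led nuclei 9 of them had enough UMIs, of which 2 were lower, 0 higher and 7 not called, where 25.4% of all genes were lower and 11.6% higher. The list thus had no larger share of lower calls than all genes, with a median log2 ratio of -0.17 against -0.07 over all genes. Among the 1545 genes of 100 CPM or more, however, 4.92% were lower and the median was 0.27. Some list genes, such as Neb, Tpm1 and Acta1 below, stood above 100 CPM in both libraries. Tpm2, the tropomyosin beta chain, fell from 164 to 60.5 CPM (-1.44), and Acta1, skeletal alpha-actin, from 209 to 139 CPM (-0.59). Acta1 lies at the edge of the 1.5-fold rule, and 1 of these 2 calls was lost without the 5% deepest nuclei. Tpm1, the fast tropomyosin alpha chain, was at 2212 and 1560 CPM (-0.50), and Neb, the gene of the filament's ruler nebulin, at 8954 and 8203 CPM (-0.13), neither called. In Myh7-led nuclei 0 of 5 testable members were called (3.26% of all genes lower, 7.21% higher), with a median of -0.55. The slow tropomyosin gene Tpm3 was at 3741 CPM in WT and 3373 in the knockout there, and at 17.4 and 21.2 CPM in Myh4-led nuclei. The cardiac troponins Tnnt2 and Tnni3 had 5 and 1 UMIs in WT and 3 and 1 in knockout Myh4-led nuclei.

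The slow fibre programme list held 10 genes. Of 9 testable members in Myh4-led nuclei, 6 were lower (25.4% of all genes were), 1 was higher (11.6%) and 2 were not called, with a median log2 ratio of -1.72 against -0.07 over all genes. Ankrd2, a stretch-responsive titin-binding protein, was at 23.5 and 2.21 CPM (-3.39), and Casq2, the slow and cardiac calsequestrin, at 5.90 and 0.618 CPM (-3.18). Myoz2, a Z-disc protein, was at 13.4 and 2.65 CPM (-2.32). Mybpc1, the slow myosin-binding protein C, stood far above these, at 451 and 350 CPM (-0.37), and was not called. Not all list genes were highest in slow nuclei. In WT, Ankrd2 was at 612 CPM in Myh2-led and 153 in Myh7-led nuclei, the latter from 2 UMIs, while Myl2 was at 10.7 and 840. Myh2 itself was at 49.4 CPM in WT and 11.7 in knockout Myh4-led nuclei, and its part in these calls was not tested. The called-higher member was Atp2a2, the slow calcium pump, at 11.6 and 19.8 CPM (0.76), which was not called once nuclei with 2 or more UMIs of non-muscle markers were left out. The count of 6 lower members became 1 of 4 in nuclei of 1000 to under 2000 UMIs and 2 of 5 after thinning. The 25.4% is of the main setting, and shares over all genes under these other settings are not given here. Of the 10 genes of the fast programme, 0 were lower and 1 was higher, Myl1, the fast essential light chain, at 812 and 1309 CPM (0.69), with a list median of -0.22 against -0.07 over all genes. Myl1 was not called higher in Y-marked nuclei.

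In Myh1-led nuclei, where 7.48% of all genes were lower and 13.6% higher with a median log2 ratio of 0.14, 3 of 9 thin filament genes were lower and 0 higher (median -0.57). Of 7 slow programme genes there, 2 were higher and 1 lower (median -0.11), and of 10 fast programme genes 4 were lower and 0 higher (median -0.46). In Myh2-led nuclei, where 6.06% of all genes were lower and 15.9% higher with a median of 0.19, 3 of 9 thin filament genes were lower and 0 higher (median -0.12). Of 8 slow programme genes there, 3 were higher and 1 lower (median -0.02), and of 10 fast programme genes 3 were lower and 0 higher (median -0.33). In Myh7-led nuclei, where 3.26% of all genes were lower and 7.21% higher with a median of 0.31, 1 of 7 slow programme genes was lower (median 0.22), Myl2, the slow regulatory light chain (-1.19). Of the 2 testable fast programme genes 0 were called.

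Genes whose level followed the troponins were ranked by Pearson's r of log2(CPM + 1) over the 8 sums of 4 myosin groups in 2 libraries, among 7380 genes. The sums share their libraries and depth, so r is a description. Tpm3 was most like the slow set (r = 0.99), followed by Ganab (0.99), Slc12a9 (0.99), Tfdp1 (0.98) and Tsc22d4 (0.98). Of these, only Tpm3 rested on more than 1 UMI in the WT Myh7-led sum. The genes most like the fast set were Gm44187, Gypc, Tmem63a, Snrnp27 and Cnppd1 (r = 0.97 each), all with 0 UMIs in both Myh7-led sums.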

How the data were processed

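Nuclei of quadriceps from WT and PTRF knockout mice were captured with the 10x Genomics 3′ v3.1 chemistry, 1 library per genotype. The authors deposited unnormalised counts of UMIs for each feature in each barcode, written by Cell Ranger 6.0.0 according to the file headers. STAR, Seurat 4.1.1, mm10 and GRCm38 are named in the submitters' processing notes. How introns and strand were counted, how barcodes were called and which annotation release was used is not given in the sources.

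From these counts, nuclei were kept that had 200 or more genes and no more than 5% mitochondrial UMIs. The leading gene was that of Myh1, Myh2, Myh4 and Myh7 with strictly most UMIs, at least 1. UMIs were summed per library and group and scaled to CPM. Ratios had 0.5 UMI added to each sum. Intervals were exact at 95%: Poisson for levels, Clopper-Pearson for shares and conditional binomial for ratios. Nuclei were thinned to 500 UMIs with seed 7 and their leading gene was called again on the thinned counts; 2055 shallower WT nuclei and 0 knockout nuclei were left out. No doublet caller was run and doublets stayed in. Both Xist and Y-linked UMIs were found in 221 knockout nuclei, and 1 alternative left out the 5% deepest nuclei. Computation used python 3.11.15, numpy 2.4.6, scipy 1.17.1 and pandas 2.3.3, with code tested on simulated data.

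All 6 members are named. Of each other list, at most the 4 highest and 4 lowest genes by ratio in Myh4-led nuclei among those with at least 20 UMIs were named, with a few genes below that level or in other groups given after their values were seen. The 5 genes most like each set were named by Pearson's r over sums, among genes with at least 200 UMIs. Members, lists and rules were chosen with earlier results of these data known.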

Additional observations from a re-analysis of the deposited data

How the results depend on the processing

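Tnnt3 was called lower in the knockout in Myh4-led, Myh1-led and Myh2-led nuclei under 14 of 14 alternatives each, with log2 ratios from -1.66 to -1.45, -1.91 to -1.51 and -1.75 to -1.34. Tnni2 in Myh4-led nuclei ran from -0.40 to 0.12 and was called under 0 of 14. The fast sum in Myh4-led nuclei was -1.42 and moved by more than its counting interval after thinning with the leading gene called again (-1.36) or taken from all UMIs (-1.38), with at least 500 genes (-1.34), in Y-marked nuclei (-1.34), without nuclei with non-muscle markers (-1.38), without Rn18s, Malat1 and mitochondrially encoded genes in the total (-1.50), scaled by the median ratio over genes (-1.35) and in nuclei of 1000 to under 2000 UMIs (-1.25), a depth range chosen after seeing the data, as was thinning with groups from all UMIs. Tnnt1 in Myh4-led nuclei reversed in Y-marked nuclei (0.11) and with Xist-marked knockout against Y-marked WT nuclei (1.15), with 1 WT UMI left in each. The slow share, as knockout minus WT in percentage points, in Myh1-led nuclei was 1.75 after thinning, or 1.46 with groups from all UMIs, and 0.216 to 0.265 with an interval reaching 0 with at least 500 genes, in Y-marked nuclei and with at least 2 leading UMIs. In Myh2-led nuclei it was -0.15 after thinning, -0.14 with groups from all UMIs and -0.13 in nuclei of 1000 to under 2000 UMIs, and in Myh7-led nuclei it was 1.16 in nuclei of 1000 to under 2000 UMIs. The cause of these moves was not tested. Median scaling shifts log2 ratios by 0.07 in Myh4-led, -0.14 in Myh1-led, -0.19 in Myh2-led and -0.31 in Myh7-led nuclei.

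The counts of the gene lists in Myh4-led nuclei were recomputed after seeing the data. Shares over all genes under the same settings are not given here, so these counts have no background beside them. The 2 thin filament genes called lower became 1 with Xist-marked against Y-marked nuclei, without nuclei with non-muscle markers, without the 5% deepest nuclei and with median scaling, and the 0 higher became 1 with Xist-marked against Y-marked nuclei. The 6 slow programme genes called lower became 3 with at least 500 genes, 2 after thinning, 2 with Xist-marked against Y-marked nuclei and 1 in nuclei of 1000 to under 2000 UMIs, where fewer genes reached 20 UMIs. The 1 higher became 2 with Xist-marked against Y-marked nuclei, and 0 without nuclei with non-muscle markers, without the deepest nuclei and in nuclei of 1000 to under 2000 UMIs. The 1 fast programme gene called higher became 0 in Y-marked nuclei, with Xist-marked against Y-marked nuclei and with at least 500 genes, and the 0 lower became 1 in Y-marked nuclei, with at least 500 genes and without Rn18s, Malat1 and mitochondrially encoded genes.

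No paired analysis was possible because there was 1 library per genotype. The 16 WT Myh7-led nuclei limit every slow troponin comparison, and sums under 20 UMIs are given as values only.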

Other observations

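Nuclei with no UMI of the 4 myosin genes also held troponin. Tnnt3 was at 2445 CPM in the 1397 WT and 212 CPM in the 1790 knockout nuclei of this kind. The general myonuclear markers were at 71418 CPM in the WT and 12642 CPM in the knockout ones, and adipocyte markers (Adipoq, Plin1, Cidec, Lep, Pck1) at 286 and 2041 CPM, so these groups differed in make-up. There were 12.6 Tnnt3 UMIs for each Tnni2 UMI in the WT and 4.75 in the knockout nuclei. A slow troponin UMI was found in 11 of the WT and 15 of the knockout ones. Of nuclei that held a Myh7 UMI but were led by another myosin gene or tied, 5 of 26 in WT and 1 of 7 in the knockout held a slow troponin UMI.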
